A study of Oncorhynchus mykiss with 48 samples.

Results

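The 200 genes described here were chosen from the 46585 genes of the liver tables of rainbow trout (Oncorhynchus mykiss) because their level rose in steps from Control over BPA4 to BPA40 in F2 fish at 365 days post fertilization (dpf). Level means CPM, the fragments assigned to a gene divided by the fragments of the same fish in genes that Cuffdiff had not marked HIDATA, and given per 1000000 of them. A gene qualified when every BPA40 fish lay above every Control fish, the BPA4 mean lay between the other means, the BPA40 mean was at least 2 CPM and the log2 ratio of the BPA40 to the Control mean, with 0.5 CPM added to both, was at least 0.8. The same ratio also had to exceed -0.7 at F2 112 dpf, and genes marked HIDATA were left out. Of 46571 unmarked genes, 1878 had BPA40 fish above all Control fish, 756 also passed the ratio, 656 the BPA4 position, 540 the minimum and 490 the limit at 112 dpf. The 200 with the highest ratios were kept and are referred to by their rank, rank 1 having the highest ratio. The genes of ranks 199 and 200 had log2 ratios of 1.335 and 1.332, while the next 2 genes, just outside, had 1.332 and 1.331.

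Liver RNA was sequenced from 48 fish, 4 for each of 3 treatments in F1 fish of 140 and 365 dpf and in F2 fish of 112 and 365 dpf. F0 eggs from pooled females of 1 broodstock were held for 3 h in ovarian fluid with ethanol vehicle, 3 or 30 mg/l bisphenol A (BPA), which left 0 (Control), 4 (BPA4) or 40 (BPA40) ng in each egg. These eggs, fertilized with untreated milt, gave the F1 fish, and eggs of the mature F1 females with sperm of untreated males gave the F2 fish. All fish lived in clean water, and the study did not detect BPA in the F1 females' eggs. F1 fish of a treatment were kept in 3 tanks and F2 fish in 1, and the F2 fish of a treatment had mothers from that treatment only. In F2, therefore, tank, mothers and treatment cannot be told apart. The sources used here do not give the tank of a sequenced F1 fish, and the F1 fits had no term for tank. In both generations p-values measure the spread between fish. Listed fragments per fish ranged from 6788947 to 19528494, lowest in a BPA4 fish at F2 112 dpf. TMM factors, which correct for the composition of a library, were between 0.736 and 1.21, lowest in Control replicate 0 at F2 365 dpf and highest in BPA40 replicate 0 of the same time point.

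The liver makes plasma proteins and bile, stores glycogen and handles the fat and amino acids that a growing fish takes up. A piece of liver holds hepatocytes together with blood, vessel, bile duct and immune cells, so that in bulk RNA fewer cells of a type and less RNA per cell cannot be told apart. BPA is a synthetic monomer of plastics that binds vertebrate estrogen receptors weakly. Salmonids descend from an ancestor whose genome doubled, and many of their genes have a close copy among which short reads can be divided. The tables give annotation identifiers without names, and 0 of the identifiers matched the reference table at hand, so that the functions of the 200 genes, their sequences and the markers of liver and of other cell types were not analysed here. The division of reads among near-identical copies was not tested.

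At F2 365 dpf the median of the 200 genes was 2.41 CPM in Control, 5.28 CPM in BPA4 and 12.98 CPM in BPA40 fish. Per kilobase, the median was 1.19 FPKM in Control, 2.37 FPKM in BPA4 and 5.81 FPKM in BPA40, where the median of all genes tested was 2.49, 2.45 and 2.46 FPKM. The log2 ratio of BPA40 to Control ran from 1.33 to 5.84 with a median of 1.87, and it reached 2 in 89 genes and 3 in 22. Over all genes tested the median was 0.13, and 65.6% were higher in BPA40. In edgeR with TMM 48.3% of all genes tested were higher, with a median log2 fold change of -0.018. Most of the 200 genes were of moderate abundance: 113 had a BPA40 mean of at least 10 CPM, 13 reached 100 CPM, and 60 had a Control mean under 1 CPM. These values chose the genes and are given as a description. Every BPA40 fish exceeded every Control fish in all 200 genes by the rule, and in 6.1% of all genes tested.

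Rank 1 (GSONMT00047450001) was close to silent in the F2 Control fish at 365 dpf, at 0.214, 0.36, 0.236 and 0.112 CPM. Its BPA4 fish had 3.28, 12.4, 2.02 and 3.32 CPM, and its BPA40 fish had 7.48, 73.2, 12.03 and 72.3 CPM. No BPA4 fish overlapped the Control fish, and BPA40 replicates 1 and 3 stood far above all other fish. The most abundant member, rank 87 (GSONMT00033208001), had 229, 272, 386 and 226 CPM in Control fish, 474, 273, 681 and 525 CPM in BPA4 fish and 1428, 1028, 899 and 1175 CPM in BPA40 fish. All of its BPA40 fish lay above all other fish of the time point. The gene of rank 23, the second most abundant, had 19.99 to 48.1 CPM in Control, 45.7 to 129 CPM in BPA4 and 238 to 366 CPM in BPA40 fish, with BPA4 replicate 1 the highest of its group. The next in abundance after these were ranks 3, 5 and 116, with BPA40 means of 269.98, 186.58 and 186.01 CPM.

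Among the highest ranks the BPA40 fish did not form a uniform group. Rank 3 had 593, 391, 44.9 and 50.2 CPM in the 4 BPA40 fish, against 9.59 to 22.4 CPM in Control and 25.5 to 61.9 CPM in BPA4 fish. Rank 5 had 287, 282, 47.2 and 130 CPM in BPA40, against 8.21 to 14.9 CPM in Control and 15.0 to 27.2 CPM in BPA4 fish. For both genes BPA40 replicates 0 and 1 carried most of the group mean. Rank 4 had 16.004, 16.2, 1.56 and 1.44 CPM in BPA40 fish and at most 0.485 CPM in any BPA4 or Control fish, so that for this gene the BPA4 group lay next to Control. Rank 2 showed another order, with 268 CPM in BPA40 replicate 0, 64.8 to 77.3 CPM in the other BPA40 fish and 36.7 CPM in a single BPA4 fish, where the Control fish had 4.33 to 8.51 CPM. The other genes among the first 10, ranks 6, 8, 9 and 10, had BPA40 means of 31.16, 6.07, 13.23 and 11.34 CPM against Control means of 1.80, 0.108, 0.847 and 0.666 CPM.

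Rank 7 was detected in F2 fish, with 0 fragments in all 24 F1 fish, which allows up to 0.26 CPM in the shallowest of them when 3 fragments are counted per fish. At F2 365 dpf it had 0 fragments in all 4 Control fish, which allows up to 0.0458 CPM when 3 fragments are counted over the group. The BPA4 fish had 6.07, 5.82, 2.54 and 1.18 CPM and the BPA40 fish 6.78, 4.77, 0.241 and 9.76 CPM. The means of these groups were at least 85.1-fold and 117.5-fold higher than that limit, which covers counting error only. The lowest BPA40 fish, at 0.241 CPM, had 4 fragments, close to the limit of up to 0.214 CPM for a single Control fish. At F2 112 dpf 1 Control fish had 2.31 CPM and the other Control fish 0, while 3 BPA4 fish had 1.80 to 5.54 CPM, the other BPA4 fish had 0 and all BPA40 fish had 0.429 to 4.65 CPM. Detection of this gene thus differed between single fish of a group at F2 112 dpf.

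**Figure D1:**
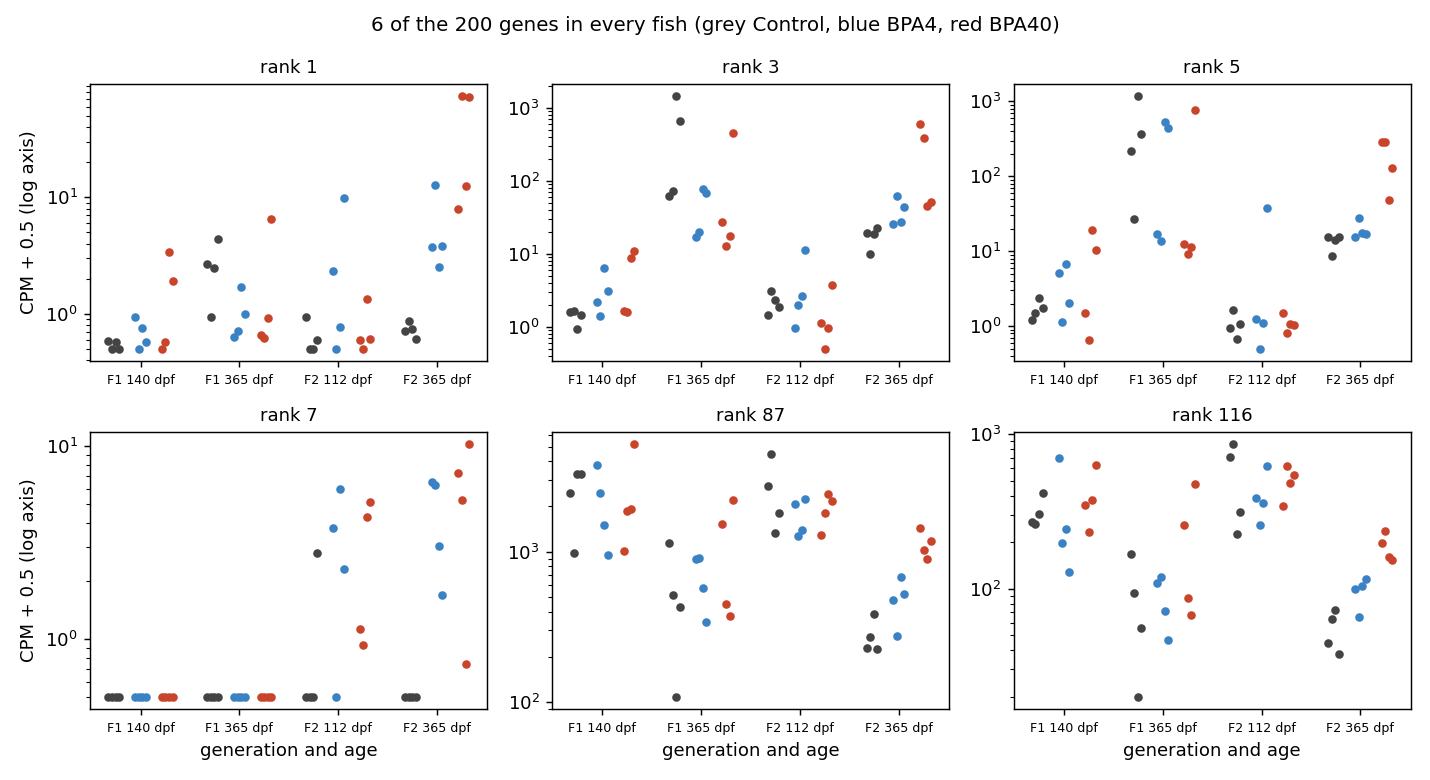
Level of the genes of ranks 1, 3, 5, 7, 87 and 116 in each of 48 fish, as CPM + 0.5 on a log axis, by generation and age; each point is 1 fish (grey Control, blue BPA4, red BPA40). Rank 7 sat at 0 in all F1 fish, rank 5 was high in fish of each treatment at F1 365 dpf, and ranks 87 and 116 were lower at F1 365 dpf than at F1 140 dpf in Control fish.

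BPA4 fish took a middle position by the rule, so that their place between the other groups describes the choice of the genes and nothing is read from the shares beside it. On the log2 scale the BPA4 mean lay a median of 43.0% of the way from Control to BPA40, with quartiles of 27.7% and 57.2% and a range of 3.25% to 97.9%. All 4 BPA4 fish exceeded all Control fish in 81 of the 200 genes, while this held for 5.8% of all genes tested. All BPA4 fish lay below all BPA40 fish in 53 genes, and the 3 groups were fully apart in 14, where 3.33% and 0.0913% of all genes tested did so. The mean of log2(CPM + 0.5) over the 200 genes was 1.54, 1.71, 1.74 and 1.85 in the Control fish, 2.33, 3.05, 2.38 and 2.46 in the BPA4 fish and 4.18, 4.04, 3.02 and 3.48 in the BPA40 fish. BPA4 replicate 1 was the highest BPA4 fish for 143 genes, and BPA40 replicate 2, the lowest BPA40 fish for 135 genes, was just under it on this mean. Summed over the 200 genes, they took 0.125% to 0.159% of the fragments in unmarked genes in Control, 0.232% to 0.331% in BPA4 and 0.410% to 0.890% in BPA40 fish.

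In edgeR's quasi-likelihood test over all genes, 71 of the 198 genes that passed the count filter at F2 365 dpf were called higher in BPA40 (adjusted p under 0.05), where 0.335% of all genes tested were. Nothing is read from this count, since the same fish chose the genes. It ranged from 3 without Control replicate 2 and 9 without Control replicate 1 to 99 without BPA40 replicate 2. Over all genes tested, 3 of 26874, 9 of 26916 and 133 of 26896 were called higher in these fits. The count was 28 without Control replicate 0, the fish with the lowest TMM factor, beside 34 of 26990. It was 38 without Control replicate 3, beside 65 of 26746, and 41 without BPA4 replicate 3, beside 49 of 26963. It was 33, 29 and 44 without BPA40 replicates 0, 1 and 3, beside 37 of 26605, 32 of 26853 and 52 of 26873. DESeq2 called 181 higher, where 1.53% of all genes tested were. Against Control, BPA4 had 0 of the genes called by edgeR (0% of all genes tested in this direction), 89 higher with an unadjusted p under 0.05 (5.89% of all genes tested), and 31 called higher by DESeq2 (0.844% of all genes tested).

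**Figure D2:**
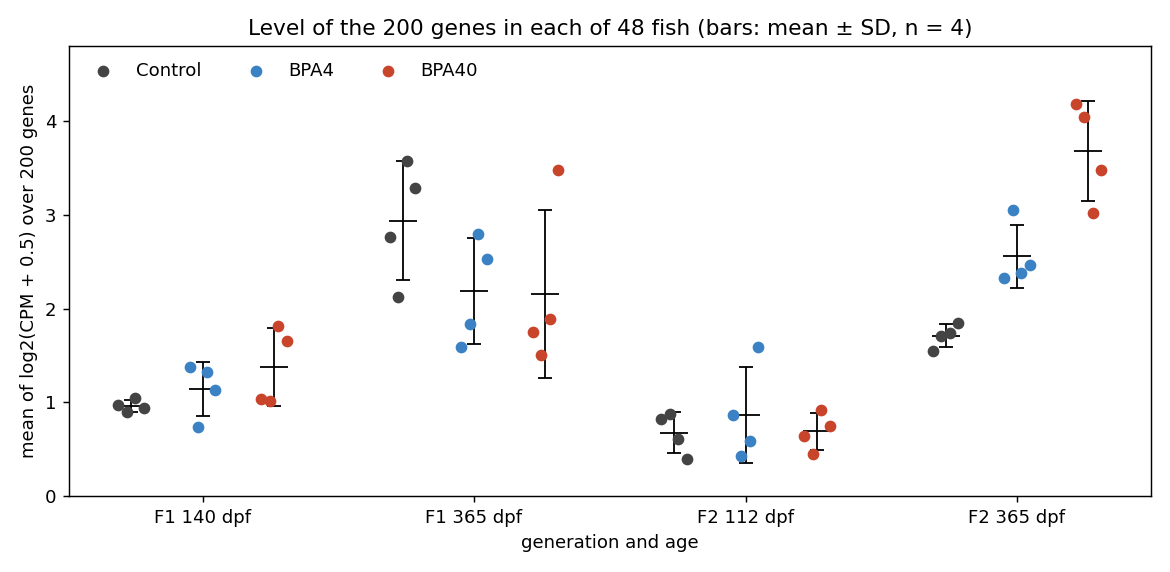
Mean of log2(CPM + 0.5) over the 200 genes in each of 48 fish (points), by generation and age; bars give the mean ± SD of 4 fish. The groups were graded and apart between Control and BPA40 at F2 365 dpf, which the rule requires gene by gene, whereas at F1 365 dpf fish of all treatments overlapped and 1 BPA40 fish lay at 3.48.

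F1 fish at 140 dpf, which the rule did not use, gave 166 of the 200 genes (83%) a higher mean in BPA40 than in Control. The median log2 ratio was 0.44, with quartiles of 0.09 and 0.83, and 40 genes had a ratio of at least 1, against 2 at -1 or less. Over all genes tested at this age the median was 0.11 and 65.0% were higher in BPA40. The means of 106 genes rose in the order Control, BPA4, BPA40 and those of 13 fell, where 22.6% and 9.49% of all genes tested did. The 290 genes that met the rule but ranked below 200 had a median log2 ratio of 0.19. In BPA4 fish, compared with the same Control fish, 149 of the 200 were higher, with a median log2 ratio of 0.23 beside 0.06 over all genes tested.

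No single gene of the list passed edgeR's test at F1 140 dpf, while DESeq2 called some. Most of the list was scarce at this age, with a median of 0.899 CPM in Control, and 129 of the 200 passed the filter. edgeR called 0 of them in either direction (0.00474% of all genes tested were called higher), 34 were higher and 4 lower with an unadjusted p under 0.05, where 4.29% and 2.92% of all genes were, and DESeq2 called 4 higher and 1 lower, beside 0.27% and 0.223% of all genes. Along the trend over the 3 treatments edgeR again called 0 (0.0142% and 0.0332% of all genes tested were called rising and falling), with 34 rising and 5 falling at an unadjusted p under 0.05, beside 3.91% and 2.64%, and DESeq2 called 4 rising, beside 0.204% of all genes. BPA4 against Control gave 0 calls by edgeR and DESeq2 (0% of all genes tested by edgeR, and 0.185% higher and 0.0712% lower by DESeq2), with 7 genes higher and 2 lower at an unadjusted p under 0.05 in edgeR, beside 3.39% and 2.97%. BPA40 against BPA4 gave 0 calls by edgeR (0.00474% of all genes tested in each direction) and 1 higher by DESeq2 (0.626%), with 17 higher and 2 lower at that p in edgeR, beside 6.46% and 4.48%. Every BPA40 fish exceeded every Control fish in 12 of the 200 genes and lay below in 1, where this held for 4.87% and 0.901% of all genes tested.

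The gene of rank 195 came nearest to a call, and it is named for that, after its values were seen. Its Control fish had 2.79, 3.50, 2.09 and 3.77 CPM, its BPA4 fish 10.0, 3.01, 4.86 and 4.79 CPM and its BPA40 fish 8.40, 7.65, 11.2 and 12.1 CPM. Control and BPA40 fish did not overlap, and the log2 fold change was 1.59 (SE 0.325, edgeR adjusted p = 0.152). Rank 182, chosen in the same way, had 7.28 to 9.59 CPM in Control and 10.6 to 43.4 CPM in BPA40 fish (log2 fold change 1.68, SE 0.361, edgeR adjusted p = 0.188). Rank 68 had 0.216 to 0.387 CPM in Control and 0.765 to 5.84 CPM in BPA40 fish (log2 fold change 3.07, SE 0.693, edgeR adjusted p = 0.205).

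The higher mean of BPA40 at F1 140 dpf came with a split among its fish. Over the 200 genes the mean of log2(CPM + 0.5) was 1.03 and 1.01 in BPA40 replicates 0 and 1, within the 0.89 to 1.04 of the Control fish, and 1.82 and 1.65 in replicates 2 and 3. BPA40 replicate 2 was the highest fish of its group for 107 genes. Rank 1, for example, had 0, 0.0765, 2.92 and 1.43 CPM in the BPA40 fish and at most 0.0774 CPM in Control fish, and rank 5 had 0.998, 0.153, 18.6 and 9.99 CPM beside 0.697 to 1.87 CPM. Without BPA40 replicate 2, the genes of the list higher with an unadjusted p under 0.05 were 17, beside 766 of all 21752 genes tested. The median log2 fold change of the list was then 0.30, against 0.52 with all fish. Without BPA40 replicate 1 there were 51 such genes and 1 was called, beside 1135 and 3 of all 21438 genes tested. BPA40 replicates 2 and 3 had TMM factors of 0.903 and 1.106. The part of library composition in this split was not tested.

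**Figure D3:**
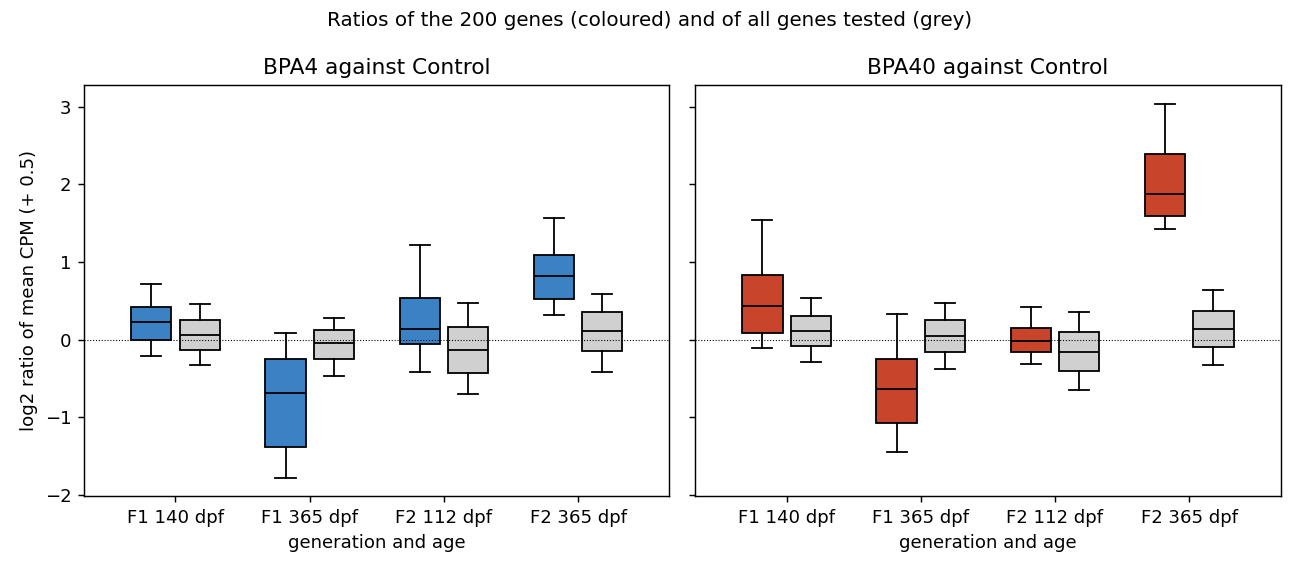
Log2 ratio of mean CPM (+ 0.5) against Control for the 200 genes (coloured, blue BPA4 and red BPA40) and for all genes tested (grey) at each time point; boxes give quartiles and median, whiskers the 10th and 90th percentiles. The median of the 200 genes in BPA40 was 0.44 and -0.63 in F1 fish of 140 and 365 dpf, and -0.01 and 1.87 in F2 fish of 112 and 365 dpf, the last being the value the genes were chosen by.

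At F1 365 dpf, the same age as the choosing time point, the genes mostly had lower means in the fish from exposed eggs. Of the 200 genes, 34 had a higher mean in BPA40 than in Control, and the median log2 ratio was -0.63 (quartiles -1.08 and -0.24). A ratio of -1 or less was found in 60 genes and of at least 1 in 6. In BPA4 fish, set against the same Control fish, 28 were higher, the median was -0.69 and 78 had a ratio of -1 or less. All genes tested had medians of 0.05 in BPA40 and -0.04 in BPA4. The 290 genes of lower rank had medians of 0.09 and -0.09. The means of 50 genes fell in the order Control, BPA4, BPA40 and those of 16 rose, where 14.6% and 20.8% of all genes tested did.

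None of these differences passed the test against the spread between fish. Of the 189 genes that passed the filter, edgeR called 0 for BPA40 against Control, where 0% of all genes tested were called, 2 were higher and 15 lower with an unadjusted p under 0.05, beside 4.04% and 3.55% of all genes, and DESeq2 called 0, beside 0.0866% higher and 0.0371% lower. For BPA4 against Control edgeR and DESeq2 called 0 (0% of all genes tested by edgeR, and 0.00825% lower by DESeq2), with 0 higher and 18 lower at an unadjusted p under 0.05 in edgeR, beside 1.95% and 3.93%. Without TMM 32 were lower at that p, beside 4.95% of all genes. Leaving out Control replicate 1 gave 41, beside 923 of all 24787 genes tested, and Control replicate 2 gave 3, beside 924 of 24881. Leaving out BPA4 replicate 0 or 1 gave 5 each, beside 611 of 24827 and 602 of 24906. Leaving out BPA40 replicate 3 gave 68, beside 1076 of 24957. BPA40 against BPA4 gave 0 calls by both tools (0.338% higher and 0.0289% lower over all genes in DESeq2), with 3 genes higher and 0 lower at an unadjusted p under 0.05 in edgeR, beside 5.51% and 2.76%. The trend gave 0 calls by both (0.0412% rising and 0.033% falling over all genes in DESeq2), with 3 rising and 21 falling at that p, beside 4.07% and 3.52%. Fish of BPA40 and Control did not overlap, with BPA40 lower, in 5 of the 200 genes (1.46% of all genes tested), and fish of BPA4 and Control in 4 (2.62%). The smallest p among the genes for BPA40 was that of rank 159, named after its values were seen, with 13.9, 7.95, 10.7 and 10.3 CPM in Control and 4.01, 3.94, 6.03 and 7.43 CPM in BPA40 fish (log2 fold change -1.03, SE 0.263, edgeR adjusted p = 0.652).

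The spread at F1 365 dpf was shared across the list, and leaving out single fish changed the size of the median difference but not its direction. The mean of log2(CPM + 0.5) over the 200 genes was 2.76, 2.13, 3.57 and 3.29 in Control fish, 1.59, 1.84, 2.79 and 2.52 in BPA4 fish and 1.75, 1.51, 1.89 and 3.48 in BPA40 fish. BPA40 replicate 3 was the highest BPA40 fish for 158 genes and lay above all but 1 Control fish. Rank 3 had 62.1, 72.0, 1444 and 670 CPM in Control fish, 16.8, 19.2, 78.0 and 67.7 CPM in BPA4 fish and 26.8, 12.5, 17.1 and 456 CPM in BPA40 fish. Rank 5 had 219, 26.2, 1167 and 364 CPM in Control, 16.7, 13.2, 525 and 441 CPM in BPA4 and 11.9, 8.67, 11.02 and 771 CPM in BPA40 fish. In both genes Control replicates 2 and 3 and BPA40 replicate 3 were high. Without BPA40 replicate 3 the median log2 fold change of the genes tested for BPA40 moved from -0.76 to -1.74. Then 135 genes of the list were lower with an unadjusted p under 0.05, beside 1493 of all 24957 genes tested. Still 0 were called, in the list and over all genes. Without Control replicate 2 the median was -0.43. Without Control replicate 1 or 3 in turn the genes of the list lower at that p were 30 and 8. All genes tested had 855 of 24787 and 557 of 24920 lower. Without BPA40 replicate 0, 1 or 2 the list had 7, 7 and 9, beside 766 of 24723, 650 of 24761 and 647 of 24669. The genes of the list higher at that p were 8 without Control replicate 0, beside 1190 of all 24705. There was 1 without Control replicate 1 or 2, beside 979 of 24787 and 971 of 24881. Without BPA40 replicate 1 there were 4, beside 808 of 24761.

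Within the treatments of F1 365 dpf, after each group mean was removed, the first axis of variation took 64.2% of the variance of the 189 genes tested, against 22.4% for all genes tested. The median correlation of gene pairs was 0.66 over 12 fish, which share their libraries, 125 genes correlated above 0.8 with the mean of the list, and 23 correlated negatively with it. The median SD within treatments was 0.905 on the log2 scale beside 0.357 for all genes tested, and the median coefficient of biological variation in edgeR was 65.3% beside 27.2%. Elsewhere the first axis took 34.8% in juvenile F1 fish, where all genes tested had 36.4%. In F2 it took 39.6% at 112 dpf and 42.1% at 365 dpf, where all genes tested had 39.3% and 30.1%. The 3 fish with the highest level of the list at F1 365 dpf, Control replicates 2 and 3 and BPA40 replicate 3, had TMM factors of 0.942, 0.952 and 0.896 and 25611, 25293 and 25644 genes with at least 5 fragments, where the other 9 fish had factors of 0.921 to 1.156 and 25746 to 27658 genes. The part of library composition in the level of the list was not tested.

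**Figure D4:**
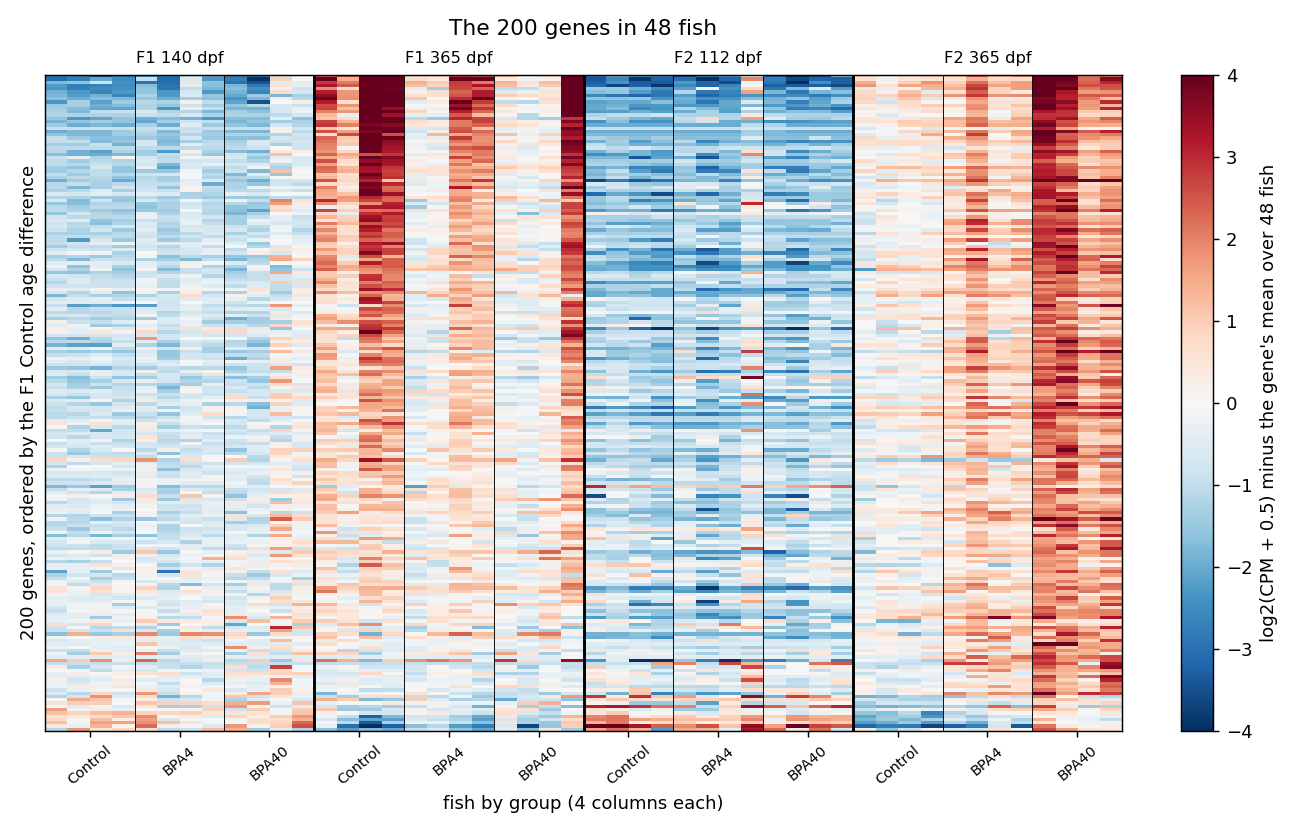
The 200 genes (rows, ordered by the difference between F1 Control fish at 365 and 140 dpf) in 48 fish (columns, 4 for each group), coloured by log2(CPM + 0.5) minus the mean of the gene over all fish. At F1 365 dpf most genes were high together in Control replicates 2 and 3 and in BPA40 replicate 3, and at F2 112 dpf in BPA4 replicate 3, while at F2 365 dpf the BPA40 fish were high by the rule.

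At F2 112 dpf the list was close to evenly split between higher and lower in BPA40. Of the 200 genes 90 were higher in BPA40, with a median log2 ratio of -0.01 beside -0.16 over all genes tested, and the rule itself had put the lower limit of this ratio at -0.7. The sign of so small a median depended on scaling, since for the genes tested it was 0.17 in edgeR with TMM and -0.04 without, where the median of all genes moved from 0.02 to -0.17. BPA4 fish, compared with the same Control fish, had 136 genes higher, with a median of 0.13 beside -0.14 over all genes tested, and 28 genes had a ratio of at least 1. The limit of the rule used these Control fish too and left out genes with high Control levels. It can therefore tilt the BPA4 ratios and counts upward, and they are given as a description. At this age the list was at its lowest, with a median of 0.528 CPM in Control, 87 genes with a mean under 0.5 CPM and 94 that passed the filter. edgeR called 0 of the 94 in BPA4 (0% of all genes tested), with 18 higher and 0 lower at an unadjusted p under 0.05 where 5.81% and 4.5% of all genes were, and DESeq2 called 4 higher, beside 0.503% of all genes. Without TMM 9 were higher and 1 lower at an unadjusted p under 0.05, beside 3.16% and 5.47% of all genes. One fish carried much of this, since BPA4 replicate 3 was the highest BPA4 fish for 142 genes, with a mean of 1.59 over the list where the other BPA4 fish had 0.43 to 0.87. Without it, 8 genes were higher at that p with TMM, beside 1041 of all 16870 genes tested. Rank 1 had 1.83, 0, 0.264 and 9.30 CPM in BPA4 fish, rank 5 had 0.730, 0, 0.615 and 37.2 CPM, and rank 3 had 0.456, 1.5004, 2.11 and 10.9 CPM, each highest in that fish. Rank 163, the gene nearest to a call and chosen for it, differed from these, with 0.481 to 1.10 CPM in Control and 1.80 to 3.61 CPM in all BPA4 fish (log2 fold change 1.89, SE 0.379, edgeR adjusted p = 0.223).

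Most of these genes were more abundant in the older Control fish. From 140 to 365 dpf in F1 Control, 179 of the 200 had a higher mean, with a median log2 ratio of 2.04 beside 0.27 over all genes tested, and 156 had a ratio of at least 1. edgeR, fitted to all 24 F1 fish, called 140 of the 192 genes tested higher and 7 lower at 365 dpf, where 25.5% and 20.8% of all genes were, and DESeq2 called 149 and 7, beside 27.0% and 21.4%. Among the first 10 ranks, rank 3 rose by 9.05 on the log2 scale (SE 1.54, edgeR adjusted p = 0.000192). Rank 5 rose by 8.30 (SE 1.92, adjusted p = 0.00188) and rank 10 by 5.48 (SE 1.29, adjusted p = 0.00206). Rank 1 rose by 5.30 (SE 1.64, adjusted p = 0.0125) and rank 9 by 2.96 (SE 1.11, adjusted p = 0.0334). Ranks 6 and 8 were not called (edgeR adjusted p = 0.0631 and 0.0878), rank 2 was called lower, and ranks 4 and 7 were not among the genes tested. Rank 23 rose by 3.67 (SE 0.636, adjusted p = 0.000222), from 4.09 to 7.14 CPM in juveniles to 31.9 to 155 CPM. Each age was tabulated on its own, so that age and table cannot be told apart. The rule also asked for a BPA40 mean of at least 2 CPM at F2 365 dpf and set no minimum at the younger ages. The choice itself thus favoured genes that are abundant at 365 dpf, and nothing is read from the rise of the list. In F2 the Control fish had 169 genes higher at 365 than at 112 dpf, with a median of 1.06 beside 0.95 over all genes tested, BPA4 fish had 177 with a median of 1.62 beside 1.10, and BPA40 fish had 192 with a median of 3.11 beside 1.16. The F2 values include the fish that chose the genes and are a description.

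A small set ran against this. The 7 genes called lower at F1 365 dpf than at 140 dpf in Control were ranks 2, 87, 90, 108, 113, 116 and 155. Rank 87 had 2444, 978, 3294 and 3284 CPM in Control at 140 dpf and 1134, 516, 108 and 428 CPM at 365 dpf, a log2 fold change of -2.51 (SE 0.677, edgeR adjusted p = 0.00537). Rank 2 fell from 48.0 to 158 CPM to 2.96 to 47.8 CPM (log2 fold change -2.74, SE 0.881, adjusted p = 0.0154), and rank 116 from 263 to 413 CPM to 19.4 to 168 CPM (log2 fold change -2.23, SE 0.627, adjusted p = 0.00698). Of the 6 genes whose ratio to Control was at least 1 in BPA40 at F1 365 dpf, 5 were in this set, ranks 2, 87, 108, 113 and 116, and the other was rank 35. Both counts use the F1 Control fish of 365 dpf, so that a low Control mean enters both. Rank 87 had 1520, 450, 372 and 2193 CPM in those BPA40 fish and rank 2 had 40.4, 4.24, 19.8 and 118 CPM, overlapping Control in both genes. At F2 112 dpf rank 2 was again high in all treatments, at 135 to 1171 CPM, and rank 87 at 1262 to 4466 CPM.

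**Figure D5:**
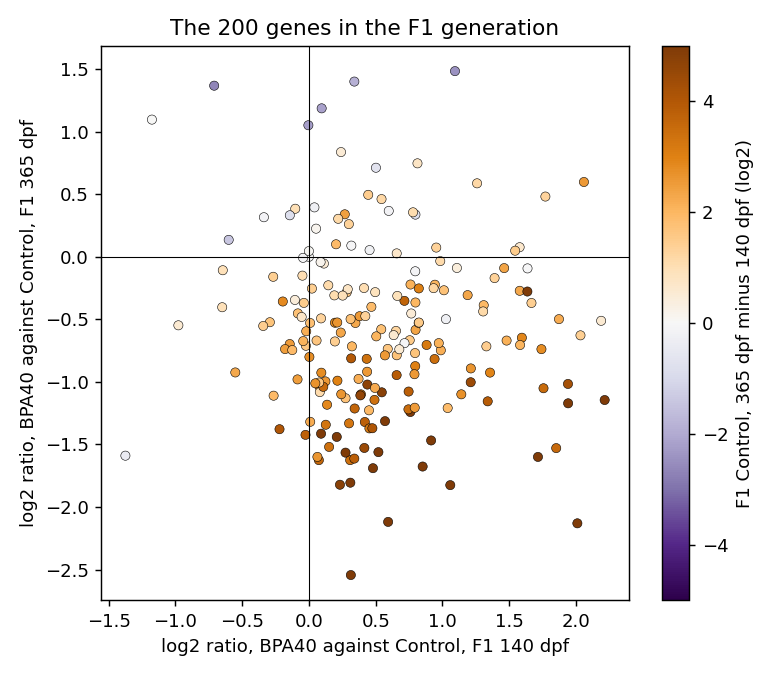
Log2 ratio of BPA40 to Control mean CPM (+ 0.5) of the 200 genes at F1 140 dpf (x axis) and F1 365 dpf (y axis), coloured by the log2 difference between F1 Control at 365 and 140 dpf; each point is 1 gene. In the lower right quadrant lie 140 genes, higher in BPA40 at 140 dpf and lower at 365 dpf, and both the y axis and the colour use the Control fish of F1 365 dpf.

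Set side by side, the F1 ratios of BPA40 changed sign with age for most of the list. Higher at F1 140 dpf and lower at F1 365 dpf were 140 genes, 26 were higher and 25 lower at both, and 7 were lower at 140 and higher at 365 dpf. These patterns were not counted over all genes tested. Of those, 65.0% had a higher BPA40 mean at F1 140 dpf and 56.3% at F1 365 dpf. In the test of the difference itself, the interaction of BPA40 with age in the 24 F1 fish, edgeR called 0 of 192 genes (0% of all genes tested), with 2 higher and 49 lower at 365 dpf at an unadjusted p under 0.05 where 2.24% and 3.8% of all genes were, and DESeq2 called 2 lower, beside 0.0322%. The smallest p was that of rank 181, named after its values were seen. It had 0.232 to 0.577 CPM in Control and 0.689 to 3.26 CPM in BPA40 fish at 140 dpf, and 1.62 to 2.98 CPM in Control and 0.705 to 1.602 CPM in BPA40 fish at 365 dpf (log2 interaction -3.02, SE 0.642, edgeR adjusted p = 0.459). Across the 200 genes, which are not independent, the log2 ratio at F2 365 dpf had a Pearson correlation of 0.43 and a Spearman correlation of 0.37 with that at F1 140 dpf, and of -0.06 and -0.15 with that at F1 365 dpf. No fish is shared between these time points, and the range of the F2 ratio was set by the choice.

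The identifiers of 18 of the 200 genes came directly before or after that of another member, in 7 runs, where 0 did among the next 200 genes in order of ratio. The longest run held 5 genes, ranks 17, 21, 96, 112 and 142, with BPA40 means of 18.9, 33.3, 2.68, 101.6 and 76.1 CPM at F2 365 dpf. All 5 were higher in BPA40 at F1 140 dpf, by log2 ratios of 0.59 to 1.48, and 4 of them were lower at F1 365 dpf. Of all 200 genes, 166 were higher at F1 140 dpf and 165 were lower at F1 365 dpf. A run of 3 genes, ranks 66, 104 and 180, had log2 ratios of -1.69, -1.41 and -1.37 at F1 365 dpf. The run of ranks 42 and 103 went the other way at that age, with 0.60 and 0.10. Whether the order of identifiers is that of the genome is not given in the sources used here, and reads shared between neighbouring gene models were not tested. The gene length implied by the ratio of CPM to FPKM had a median of 0.956 relative to the median gene, beside 0.979 for all genes tested.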

How the data were processed

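Liver RNA of 48 fish was sequenced in pairs of reads from stranded mRNA libraries. The authors trimmed reads with bcl2fastq, mapped them with TopHat2 2.1.0 and Bowtie2 2.2.6 to the published trout genome (build name not given in the sources used here), assembled them with Cufflinks and compared treatments with Cuffdiff. The deposited tables hold fragment counts for each gene and fish, which are whole numbers without normalization, and FPKM, which the authors had Cuffdiff scale across all 12 fish that were sampled together. The 8 columns of otherwise scaled fragments were not used. Genes marked HIDATA in any treatment, 8 to 14 at a time point, are listed at 0 in all marked values, so they were left out of tests and of the totals behind CPM. Their listed values made up 0% to 6.22% of the fragments listed for a fish. Marked values count as 0 there, so the true share is not known. The listed totals can lack different genes in different treatments, also in the alternative of CPM over all fragments. Depth was 6788947 to 19528494 listed fragments per fish, and limits for a count of 0 cover counting error only.

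Groups came from the labels. Titles of the early F2 samples give 140 dpf where other labels and the paper give 112, which was used. Descriptions of F1 BPA40 samples give 3 mg/l where titles and the paper give 30, which was used.

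Cuffdiff needs aligned reads, so fragment counts were tested with edgeR 4.0.16 (glmQLFit and glmQLFTest, TMM, filterByExpr, no covariates) in R 4.3.3, with the 12 fish of each age fitted together, or all 24 F1 fish, with Benjamini-Hochberg adjustment over all genes tested and a threshold of 0.05. DESeq2 1.42.0, other size factors, filters and pseudocounts, a replicate block and leaving out each fish were alternatives. Ratios used log2(mean CPM + 0.5), which understates the change of low genes. Python 3.11.15, pandas 2.3.3, numpy 2.4.6 and matplotlib 3.10.9 made the summaries and figures.

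The 200 genes, their rule and the lists were chosen with earlier results of these data known. By the rule for naming, the 10 highest ranks and the 5 most abundant genes were described, with 2 identifiers printed. The planned gene lists and cell type markers need names and were not used.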

Additional observations from a re-analysis of the deposited data

Results flagged for a closer look

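In 180 groups of 4 fish (24 for the level of the whole list and 156 for the 10 highest ranks and ranks 23, 87 and 116), single fish that stood apart from the other 3 were looked for, by the gap to the nearest fish as a share of the range. For normally distributed values chance gives such a fish in about 1 of 20 groups. CPM of single genes was not transformed, is skewed and can be 0, so the rate for them is not known. Such a fish was found in 27 groups, 0 of them for the level of the list, and the groups share fish. The number found is not read as an excess.

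At F1 365 dpf, BPA40 replicate 3 stood above its group with 5.97 CPM for rank 1, 455.6 CPM for rank 3, 770.9 CPM for rank 5, 4.95 CPM for rank 8, 6.19 CPM for rank 9 and 5.97 CPM for rank 10. In the same group, replicate 1 stood below with 0.606 CPM for rank 6. Among Control fish of this age, replicate 0 stood above with 47.83 CPM for rank 2 and replicate 1 below with 1.86 CPM for rank 6.

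At F2 112 dpf, BPA4 replicate 3 stood above its group with 10.92 CPM for rank 3, 37.21 CPM for rank 5, 1.99 CPM for rank 6 and 5.70 CPM for rank 8. BPA40 replicate 2 stood above with 0.842 CPM for rank 1, and Control replicate 3 with 2.31 CPM for rank 7, where the other Control fish had 0. At F2 365 dpf, BPA4 replicate 1 stood above with 12.35 CPM for rank 1, 27.2 CPM for rank 5 and 128.8 CPM for rank 23, and BPA4 replicate 2 with 36.74 CPM for rank 2. BPA40 replicate 0 stood above with 268 CPM for rank 2. Control replicate 0 stood above with 1.64 CPM for rank 9 and 1.499 CPM for rank 10 and below with 1.07 CPM for rank 6.

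At F1 140 dpf, BPA4 replicate 0 stood above with 295.3 CPM for rank 2 and 1.02 CPM for rank 4, BPA40 replicate 2 with 2.75 CPM for rank 8, and Control replicate 3 with 0.0786 CPM for rank 8, which is 1 fragment.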

How the results depend on the processing

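Groups had 4 fish, and up to 87 of the 200 genes were under 0.5 CPM at the younger ages. At F1 365 dpf 9 were, and the list had a median coefficient of biological variation of 65.3% beside 27.2%. Small differences may have been missed, which was not tested, and the calls of single genes depended on the tool. Of 366 values under alternatives, 316 stayed within 1.5 times the main count or, for medians, within 1 SD between fish (0.296 at F1 140 dpf and 0.714 at F1 365 dpf), which allows sizeable moves, and 50 went further. Counts of 0 that stayed at 0 are among the 316, so that number overstates how stable the other values were. For the moves the cause was not tested. The number of genes that met the rule was 490, and 306 with TMM-normalized CPM, 303 with DESeq2-type size factors, 461 with CPM over all fragments and 394 to 942 when 1 fish was left out. Of the 200 genes, 178, 176, 198 and 184 to 200 still met it in these settings. Among the 200 highest ratios 177, 175, 198 and 158 to 196 of them stayed. With a BPA40 mean of at least 5 CPM, 337 genes met the rule, 147 of the 200 among them. DESeq2 called 5 genes in BPA40 against Control, 1 in BPA40 against BPA4 and 4 along the trend at F1 140 dpf, 4 in BPA4 at F2 112 dpf, 2 in the F1 interaction, and 181 in BPA40 and 31 in BPA4 at F2 365 dpf. At F1 140 dpf the genes higher in BPA40 at an unadjusted p under 0.05 were 58 of 198 without a filter, beside 1401 of all 39035. With at least 10 fragments in every fish they were 17 of 75, beside 633 of 14983. Leaving out 1 fish gave 17 to 51, beside 766 of 21752 and 1135 of 21438 in the fits with these counts. The genes of the list that were lower were 2 without TMM, beside 315 of all 21078. They were 2 to 6 when 1 fish was left out, and the genes called were 0 to 1. At F1 365 dpf the genes lower in BPA40 at that p were 23 without a filter, beside 1135 of all 40017. When 1 fish was left out they were 7 to 135, those higher 1 to 8, and the median log2 fold change -1.74 to -0.43. Over all genes tested 557 to 1493 were lower in these fits. The next counts, for BPA4, come from alternatives chosen after seeing the data, as was CPM over all fragments. At F1 365 dpf 35 genes were lower at that p in DESeq2, beside 903 of all 24243. Without TMM or without a filter 32 were, beside 1201 of 24243 and 1248 of 40017. Leaving out 1 fish gave 3 to 68, beside 602 to 1175 over all genes. At F2 112 dpf 9 were higher without TMM, beside 516 of 16315. Leaving out 1 fish gave 8 to 27, beside 1041 of 16870 and 958 of 16901 in the fits with these counts. For all 200 genes the median log2 ratio when 1 fish was left out was 0.28 to 0.52 at F1 140 dpf and -1.22 to -0.39 at F1 365 dpf, and 0.43 and -0.61 with CPM over all fragments. At F2 365 dpf, leaving out 1 fish gave 3 to 99 calls in BPA40. Over all genes tested, 3 of 26874 and 133 of 26896 were called higher in the fits with these counts.

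The labels do not say whether replicate numbers pair the fish, and the main fits did not pair them. Over all ages the deviations of same-numbered fish correlated between -0.39 and 0.39, and 12 of 48 such pairs exceeded 0.1. At F1 365 dpf the correlations ran from -0.03 to 0.28. Each treatment had its own tanks in F1, so same-numbered fish of different treatments did not share a tank. A block for the replicate number is therefore not a term for tank. With the replicate number as a block, 67 of the list were lower and 4 higher in BPA40 at F1 365 dpf (unadjusted p under 0.05). Of all 24243 genes tested, 982 were lower and 1067 higher. In BPA4 70 of the list were lower at that p, beside 1017 of all genes, and 0 were called in either group. At F1 140 dpf 25 were higher in BPA40 at that p, beside 637 of all 21078. At F2 365 dpf 55 were called higher in BPA40, beside 62 of all 26296. Without the block, 15 genes were lower in BPA40 and 18 in BPA4 at F1 365 dpf, beside 861 and 953 of all 24243.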
